A study of Mus musculus with 4 samples.

Results

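The AP-1 genes of the Fos and Jun families were taken as every probe set whose annotation gave the single symbol Fos, Fosb, Fosl2, Jun, Junb or Jund. This gave 8 probe sets for 6 genes, of 12422 probe sets other than controls on the array. Junb and Fos each had 2 probe sets and the others 1. Each probe set is made of several short oligonucleotides against a transcript, whose binding differs, so values of different probe sets are not set against each other here.

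The samples were CA1 hippocampus, the pyramidal cell field that carries contextual memory, from young male C57BL/6J mice. The labels call all of them shock alone: each mouse was put in the new chamber 2 h ahead of training and then had 3 shocks of 0.5 mA for 1 s through the floor grid, each after 2 min. The mice stayed in the chamber for 1 h after the last shock. Total RNA was taken at 1, 2, 4 or 6 h after that shock and hybridised to Affymetrix MG-U74Av2 arrays, 1 array per time and 4 in all. The number of animals behind each array is not stated. Mice without shock were not analysed here, so each time is compared with the others and not with a baseline. With 1 array per time no difference has a replicate check and no p-value is given. Precision is limited by this number of arrays.

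AP-1 is a transcription factor made of pairs of basic leucine zipper proteins. Jun proteins can pair with themselves or with a Fos protein, while Fos proteins need a Jun partner to bind DNA. Fos, Fosb and Junb are immediate early genes, switched on in neurons by synaptic activity through calcium, cyclic AMP and MAP kinase signals that reach CREB and serum response factor at their promoters. Their transcripts are short-lived, and the Fos transcript is widely used to mark recently active hippocampal neurons. Jund is made at a steady level in most cells, and Fosl2 is a slower member of the Fos family.

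The RefSeq sequence before the transcript start is shown for the 4 early members, where Fos, Fosb and Junb held TGACG and Jun TGACATCA. For Fos (chr12:85473640-85473889, plus strand), Jun (chr4:95052223-95052472, minus strand) and Junb (chr8:84978749-84978998, minus strand) it is the 250 bases before the start in GRCm38.p6. For Fosb it is 30 bases around its match (chr7:19310089-19310118, minus strand), because other annotated transcripts of the gene begin upstream. Capitals mark TGACG, the first part of the cyclic AMP response element, the variant TGACATCA, or the TATA box TATAAA.
Fos: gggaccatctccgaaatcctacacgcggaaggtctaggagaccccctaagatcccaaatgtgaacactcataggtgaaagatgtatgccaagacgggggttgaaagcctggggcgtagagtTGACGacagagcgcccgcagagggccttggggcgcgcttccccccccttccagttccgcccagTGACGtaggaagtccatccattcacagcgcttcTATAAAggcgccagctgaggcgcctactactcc
Fosb: atggagttgcgggTGACGcaagcgcggggg
Jun: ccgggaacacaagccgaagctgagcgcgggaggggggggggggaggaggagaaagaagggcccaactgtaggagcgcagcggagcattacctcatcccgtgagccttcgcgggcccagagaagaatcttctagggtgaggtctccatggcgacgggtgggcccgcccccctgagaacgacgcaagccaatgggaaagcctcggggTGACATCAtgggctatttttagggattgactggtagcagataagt
Junb: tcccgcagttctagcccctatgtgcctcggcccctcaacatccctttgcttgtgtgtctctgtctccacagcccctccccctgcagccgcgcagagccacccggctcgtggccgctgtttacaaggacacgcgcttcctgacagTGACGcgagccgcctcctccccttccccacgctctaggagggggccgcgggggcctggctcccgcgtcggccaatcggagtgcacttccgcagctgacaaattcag

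Fos held TGACG at 129 and at 66 bases before its start and TATAAA at 33. Fosb held TGACG at 60 bases before the start of the transcript used, and Junb at 106. Jun held no TGACG and had TGACATCA at 45. That variant was searched as the type of the Jun promoter, so its match in Jun was fixed in advance. The full element TGACGTCA, the AP-1 site TGANTCA and the serum response factor site were not found in the 250 bases before any of the 6 genes, and Jund and Fosl2 held none of the motifs. All motifs but TATAAA were searched on both strands. Among the 250 bases before 32851 RefSeq starts, TGACG occurred in 17.8%, TGACATCA in 2.93%, TATAAA in 7.59%, TGACGTCA in 1.55%, TGANTCA in 6.75% and the serum response factor site in 1.47%. A match describes these letters and not binding. Bases beyond these 250 were not searched, so a motif not found here may lie further from the start.

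Some features of whole arrays bear on the comparisons. The deposited intensities had been set to a common level, and they were rescaled to a common trimmed mean. On that scale 9 spike-in control probe sets were read, of BioB, BioC, BioDn and CreX. These controls are added at hybridisation and not to the tissue RNA. Their geometric mean was 1.16, 0.94 and 0.87 relative to 1 h on the 2, 4 and 6 h arrays. The array at 2 h had the highest ratio of 3' to 5' signal, 2.70 for actin against 1.74 to 1.84 on the others. For Gapdh the ratio was 3.98, 4.82, 3.85 and 3.24 at 1, 2, 4 and 6 h. At 6 h the choroid plexus transcript Ttr stood at 4482 against 89.9 to 198, and the summed level of the 7 choroid plexus markers on the array was 7909 against 1384 to 1973, with Slc4a5 and Cldn1 below the floor throughout. Of 9 CA1 markers on the array 8 were measured, with Wfs1 at 1637 to 2608 and Neurod6 at 648 to 1263, while Dcn read 5844, 3395, 2523 and 2915 at 1, 2, 4 and 6 h and so was highest at 1 h. Of 7 dentate granule and CA3 markers 5 were measured, among them Calb1, which is not confined to these cells, at 1708 to 2412. The granule cell factor Prox1 was below the floor on all 4 arrays.

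Values under 100.8, the 40th percentile of all intensities, were set to that floor before folds were taken. A probe set was called measured when its mean lay above the floor. Of the 8 AP-1 probe sets 6 were measured, namely 1 of Fos, the 1 of Fosb, the 1 of Jun, both of Junb and the 1 of Jund. All 6 read highest at 2 h, as did 29.7% of all 7427 measured probe sets. At 6 h, 5 of the 6 read lowest, as did 25.1% of all. The exception was the dimmer Junb probe set, which read lowest at 1 h. The median of the 6 at 2 h was 0.37 (log2) over the mean of 1, 4 and 6 h, and that of all measured probe sets was 0.018. When arrays were scaled instead to the spike-in controls, only Fos and the dimmer Junb probe set were still highest at 2 h. With that scaling 7.24% of all measured probe sets were highest at 2 h.

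**Figure D1:**
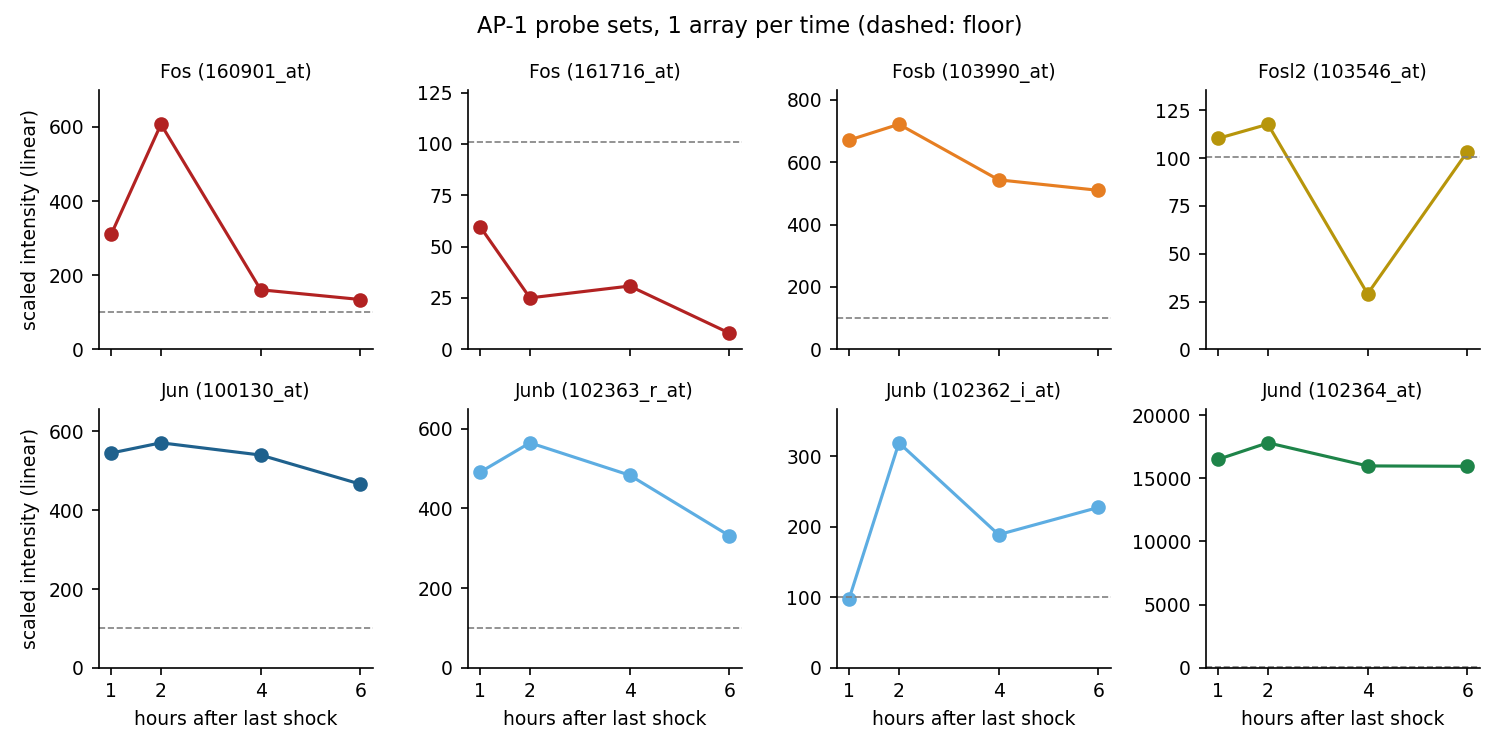
Scaled intensity (linear axis from 0, its own range in each panel) against hours after the last shock for the 8 AP-1 probe sets, with 1 array per point and a dashed line at the floor of 100.8. Fos (160901_at) reads 607 at 2 h and 134 at 6 h, while Jund (102364_at) stays between 15945 and 17804.

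Fos encodes c-Fos, the partner of Jun proteins in the AP-1 dimer that follows neuronal activity. Its main probe set, 160901_at, read 309.8 at 1 h, 607 at 2 h, then 161 at 4 h and 134 at 6 h. It was thus high on the 2 early arrays and low on the 2 late ones. The value at 2 h was 1.96-fold that at 1 h, 3.78-fold that at 4 h and 4.52-fold that at 6 h. Of all 7427 measured probe sets, 3, this one included, were lower at 6 h than at 2 h by as much, and 6 were lower at 4 h than at 2 h by as much. At 1 h it stood 2.31-fold above 6 h. The order of the times for Fos was the same as deposited, after scaling to a common median, after quantile normalization and after scaling to the spike-in controls, where 2 h was 3.40-fold above 6 h and 1.69-fold above 1 h. Raising the floor to the 60th percentile, 267, which lies above the values at 4 h and 6 h, changed the log2 difference between 6 h and 1 h from −1.21 to −0.21 and that between 2 h and the other times from 1.69 to 1.11. The other Fos probe set, 161716_at, read 59.7, 25.0, 30.8 and 7.89 from 1 to 6 h. It was below the floor on all 4 arrays, so these values have no order and a single probe set carries the result for Fos. In tissue samples, fewer Fos-expressing cells and less Fos RNA per cell cannot be told apart.

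Fosb encodes FosB and, by splicing, the shortened and long-lived ΔFosB, which its probe set was not used to separate here. It read 671 at 1 h, 722 at 2 h, then 544 at 4 h and 509.9 at 6 h. The 2 early values lay above the 2 late ones, as for Fos, but over a smaller span of 1.42-fold. The values at 1 h and 2 h differed 1.08-fold, less than the 1.16-fold between the spike-in controls of those arrays. Scaled to the spike-in controls, Fosb was highest at 1 h and lowest at 4 h, and its value at 2 h was 1.07-fold that at 6 h. From 2 h to 6 h, 889 of the 7427 measured probe sets were lower by as much as Fosb or more.

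Fosl2 encodes Fra-2, a Fos protein without the strong activation domain of c-Fos. Its probe set read 110.3, 118, 29.0 and 103 from 1 to 6 h. It was above the floor at 1, 2 and 6 h, each time by a small margin, and below it at 4 h. Its mean was below the floor, so it was left out of the counts, and the drop at 4 h gives only a bound, at least 1.17-fold below 2 h. Fosl1, which encodes the related Fra-1 and is outside the set of 6, read 27.5, 101.8, 68.8 and 51.2 and was above the floor at 2 h alone.

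Jun encodes c-Jun, the main target of the JNK kinases. It read 545 at 1 h, 571 at 2 h, then 539.9 at 4 h and 466 at 6 h. The first 3 values lay within 1.06-fold of each other, and the value at 6 h was 1.23-fold below that at 2 h. Jun was highest at 4 h after scaling to a common median, and after scaling to the spike-in controls it was highest at 4 h and lowest at 2 h. Its direction between 2 h and the other times thus depended on the scaling.

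Junb encodes JunB, which holds back c-Jun at many promoters and is induced by activity along with Fos. Both of its probe sets carry Affymetrix suffixes for incomplete sets, _i for too few unique probes and _r for relaxed selection rules. The brighter, 102363_r_at, read 491 at 1 h, 565 at 2 h, then 483 at 4 h and 331 at 6 h. Its lowest value was at 6 h, 1.70-fold below 2 h and 1.48-fold below 1 h, while the other 3 lay within 1.17-fold. The dimmer, 102362_i_at, read 97.7, 319, 189 and 227 at the same times. It was at least 3.16-fold higher at 2 h than at 1 h, where it lay just below the floor, and 17 of 7427 measured probe sets had a difference as large in that direction, itself included. Both read highest at 2 h and both were lower at 6 h than at 2 h, by 1.70-fold and 1.40-fold. They disagreed on 6 h against 1 h, with the brighter lower at 6 h and the dimmer at least 2.26-fold higher. Scaled to the spike-in controls the brighter was highest at 4 h, and the 1.40-fold of the dimmer became 1.06-fold.

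Jund encodes JunD, the Jun protein that resting neurons carry. Its probe set read 16493 at 1 h, 17804 at 2 h, then 15975 at 4 h and 15945 at 6 h. The values spanned 1.12-fold, the smallest span among the 6 measured AP-1 probe sets. Under spike-in scaling the order was turned, with 6 h highest and 2 h lowest, and after scaling to a common median 2 h was highest and 1 h lowest.

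**Figure D2:**
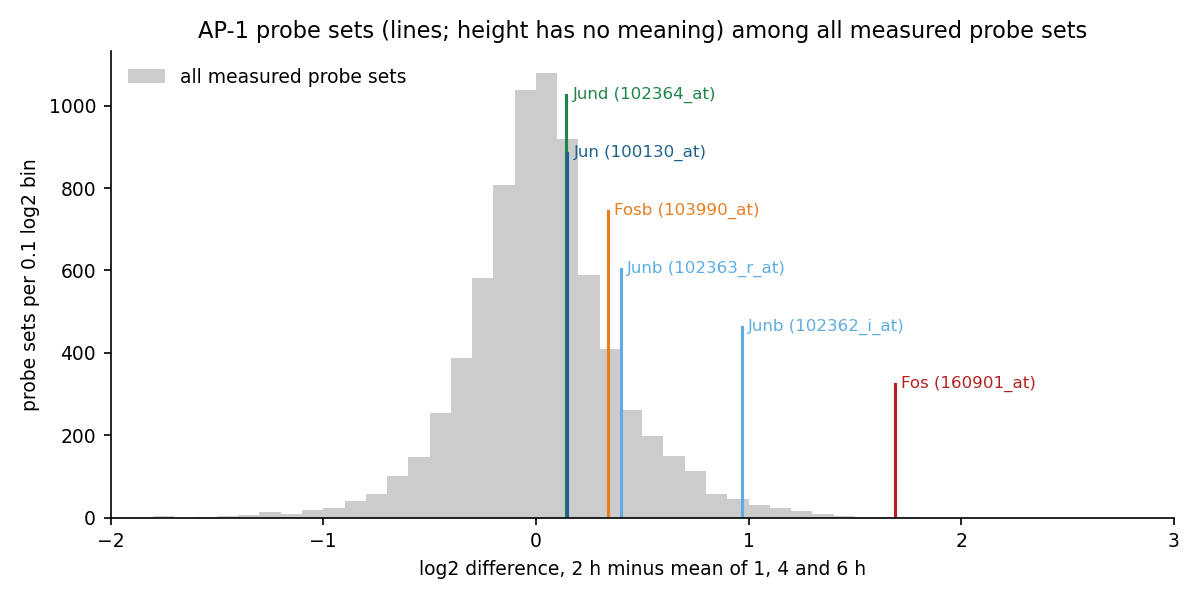
Histogram of the log2 difference between 2 h and the mean of 1, 4 and 6 h for the 7427 measured probe sets (grey, per 0.1 log2), with the 6 measured AP-1 probe sets as coloured lines whose height carries no meaning. Fos lies at 1.69 and the dimmer Junb probe set at 0.97, while Jun and Jund lie at 0.15 and 0.14, inside the bulk.

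Set against all measured probe sets, the AP-1 genes fell into unlike cases. At 2 h over the mean of the other times, 0.0539% of all measured probe sets stood as high as Fos at 1.69 and 1.45% as high as the dimmer Junb probe set at 0.97. The brighter Junb probe set at 0.40 was matched or passed by 12.5%, Fosb at 0.34 by 15.7%, Jun at 0.15 by 32.1% and Jund at 0.14 by 32.6%. At a limit of 1.5-fold, 7.28% of all probe sets were higher at 2 h than at 1 h. Past it were 2 of the 6, Fos and the dimmer Junb probe set. The same limit gave 2 of 6 lower at 6 h than at 2 h, Fos and the brighter Junb probe set, with 9.21% of all. Between 4 h and 6 h none of the 6 differed by 1.5-fold, where 5.44% of all probe sets were lower and 5.04% higher by that much. Between 1 h and 6 h, Fos was lower by that much, with 7.43% of all, and the dimmer Junb probe set higher, with 4.69% of all. By any amount, 5 of the 6 were lower at 6 h than at 1 h, as were 52.1% of all probe sets.

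Fos, Fosb, Jun, the brighter Junb probe set and Jund shared 1 order of the times, 2 h above 1 h above 4 h above 6 h. This order held for 5 of 6 AP-1 probe sets and for 5.91% of all measured probe sets, and it was singled out after the values were seen. It was also the order of the 3' to 5' ratios of actin and of Gapdh. The spike-in controls had it too, with 7 of the 9 in that order one by one. After scaling to those controls, Fos alone of the 6 kept it, with 0.997% of all measured probe sets. After scaling to a common median 2 kept it, Fos and Fosb, with 3.33% of all. The spike-in scaling moved the median log2 difference between 2 h and 6 h over all probe sets above the floor by 0.41, and the common median moved it by 0.12. With spike-in scaling the AP-1 median at 2 h was 0.058 and that of all measured probe sets −0.29, a shift that 1 factor per array gives both alike by construction.

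**Figure D3:**
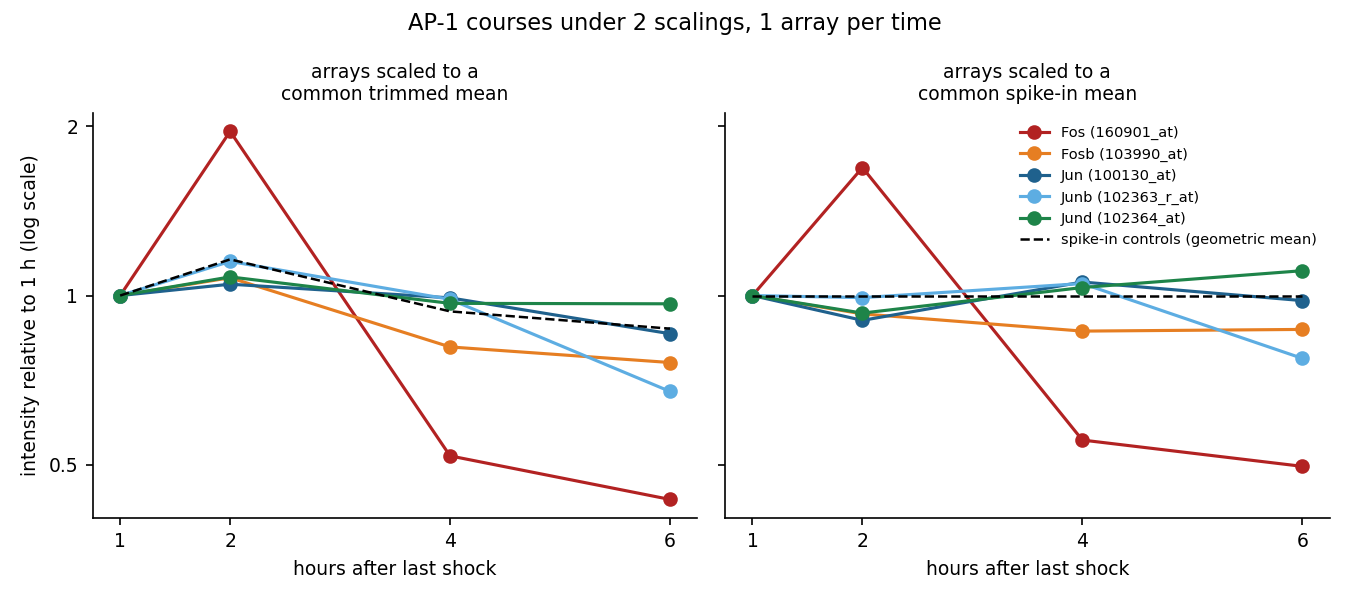
Intensity relative to 1 h (log axis) against hours after the last shock for the main probe set of Fos, Fosb, Jun, Junb and Jund, with 1 array per point. On the left arrays share a trimmed mean and the spike-in controls (dashed) read 1.16 at 2 h and 0.87 at 6 h, and on the right arrays share the spike-in mean, where Fos at 1.69 is the one course above 1 at 2 h.

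The 3 genes with the course nearest to each member were found by the root mean square distance between centred log2 values over the 4 arrays, among 5844 probe sets with 1 symbol above the floor on all 4. Nearest to Fos were Dcaf12, at a distance of 0.20 with 368, 857, 273 and 217 from 1 to 6 h, Tspan33 at 0.33 and Myh4 at 0.34. No course lay within 0.1 of that of Fos. Nearest to the brighter Junb probe set were Orc5, at 0.032 with 317, 384, 313 and 222, Fez1 and Flii, and 54 courses lay within 0.1. Fosb was nearest to Gpn2 at 0.013, Wdr81 and Tsfm, with 221 courses within 0.1. Jun was nearest to Hopx, Commd4 and Prkab1 and had 704 courses within 0.1, and Jund was nearest to Asah1, Anapc2 and Prkar1a and had 1134. This distance keeps the size of the changes, so a flat course has more courses near it than a wide one. The counts within 0.1 followed the span, from 4.52-fold for Fos to 1.12-fold for Jund. They are thus not a separate measure of how common a shape was.

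Among other activity-induced early genes, listed without the 6 members, 21 of 27 measured exceeded at 2 h their mean at 1, 4 and 6 h, as did 52.4% of all 5671 genes. Their median excess was 0.20, where that of all genes was 0.016. With spike-in scaling the 2 medians were −0.11 and −0.29, and 12 of 27 were above, with 16.1% of all genes. At 6 h, 10 of 27 were lower than at 2 h by at least 1.5-fold, with 8.57% of all genes. With spike-in scaling 3 of 27 passed that limit, as did 155 of all 5674 genes. On the trimmed mean scale, 5 of 27 were higher at 2 h than at 1 h by that much, with 6.74% of all. Egr2, a zinc finger factor induced with Fos, read 144, 328, 32.5 and 122 from 1 to 6 h, and Tiparp read 162, 365, 177 and 109.8. Both had their highest value at 2 h, as Fos did. Nr4a2, an orphan nuclear receptor, read 805, 713, 483 and 388, and Inhba, an activin subunit, stood 3.53-fold higher at 1 h than at 6 h, both highest at 1 h. Arc was not analysed here, since no probe set bore it as its single symbol.

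The kinases and factors that drive AP-1 genes had a median at 2 h like that of all genes. Of 16 measured, 9 exceeded their other times at 2 h, as did 52.4% of all genes, and the list median was 0.016. None was higher at 2 h than at 1 h by 1.5-fold, where 6.74% of all genes were. Elk1, which recruits MAP kinase signals to the Fos promoter, read 182, 161.5, 214 and 135 from 1 to 6 h. Map3k1, a kinase at the head of the JNK path, read 185, 147, 148 and 123, with its other probe sets below the floor throughout. Crem, which encodes CREB-like activators and the repressor ICER, read 264, 228, 233 and 177, and its second probe set 150.4, 148, 149 and 65.0. Both Crem probe sets were lowest at 6 h. Prkaca, the catalytic subunit of protein kinase A, was highest at 6 h, at 2237 against 1552, 1939 and 1676. The 3 Creb1 probe sets had means below the floor, and Srf was not analysed here.

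Leucine zipper proteins that can pair with Fos or Jun proteins lay on both sides of their other times. Of 10 measured, 6 exceeded their other times at 2 h, near the 52.4% of all genes. The list median of 0.036 became −0.047 after scaling to a common median, where that of all genes was −0.067, and −0.26 with spike-in scaling, where that of all genes was −0.29. Mafk, a small Maf protein, read 451, 426, 332 and 272, lower at each later time and 1.66-fold lower at 6 h than at 1 h. Mafg, of the same family, read 447, 397, 392 and 309, while its second probe set was near the floor. Ddit3, the stress factor CHOP, read 344, 232, 321 and 226 and stood 1.52-fold higher at 1 h than at 6 h. The brightest Atf3 probe set was highest at 4 h, at 157, and above the floor at 2 h and 4 h alone, but a second read 199 at 1 h and lay below the floor later. The Atf3 probe sets thus disagreed on the time of the highest value.

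Genes that restrain AP-1 or act with it differed in their courses. Dusp2, a phosphatase that switches off MAP kinases, read 415, 499, 365 and 239, the one measured gene of this list with the order of times of Fos, and its value at 2 h was 2.09-fold that at 6 h. Dusp1, of the same family, read 737, 819, 559 and 591. Spry4, an inhibitor of receptor kinase signals, read 231, 360.4, 203 and 269.6, highest at 2 h. Mapk8ip1, a scaffold for JNK, read 1807, 2766, 2135 and 2816, and its second probe set 401, 471, 426 and 539, both lowest at 1 h and highest at 6 h. Men1, whose product menin binds JunD, went the other way at 2 h, at 162 against 295, 346 and 365. Of 13 measured, 8 exceeded their other times at 2 h, as did 52.4% of all genes. The list median was 0.24, and −0.072 with spike-in scaling, where that of all genes was −0.29. At 1.5-fold, 2 of 13 were higher and 1 was lower at 2 h than at 1 h, beside 6.74% and 6.26% of all genes.

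Of 16 measured genes described elsewhere as AP-1 targets, 11 exceeded their other times at 2 h, by a list median of 0.10, with 52.4% of all genes. With spike-in scaling 3 of 16 did, with 16.1% of all genes. None was 1.5-fold above its 1 h value at 2 h, where 6.74% of all genes were. The opioid peptide gene Pdyn alone was lower by that much at 6 h than at 2 h, where 8.57% of all genes were. Pdyn read 199, 203, 133 and 133, while the other Pdyn probe set stayed under the floor. Timp1, a protease inhibitor, read 617, 658, 325 and 443. Plat, which encodes tissue plasminogen activator, read 1147, 1461, 971 and 994. Both were lower at 4 h and 6 h than at 1 h and 2 h. Ccnd1, which encodes cyclin D1, read 949.7, 687, 999 and 926, and its second probe set went the other way at 1 h, at 152 against 276, 314 and 235. Penk, the enkephalin precursor, read 2464, 2346, 2649 and 2213, but a second probe set read 193, 246, 169.6 and 119.9, with its highest value at 2 h. The 8 targets Mmp3, Mmp9, Plaur, Cd44, Il6, Ccl2, Tgfb1 and Lox were below the floor on all 4 arrays.

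**Figure D4:**
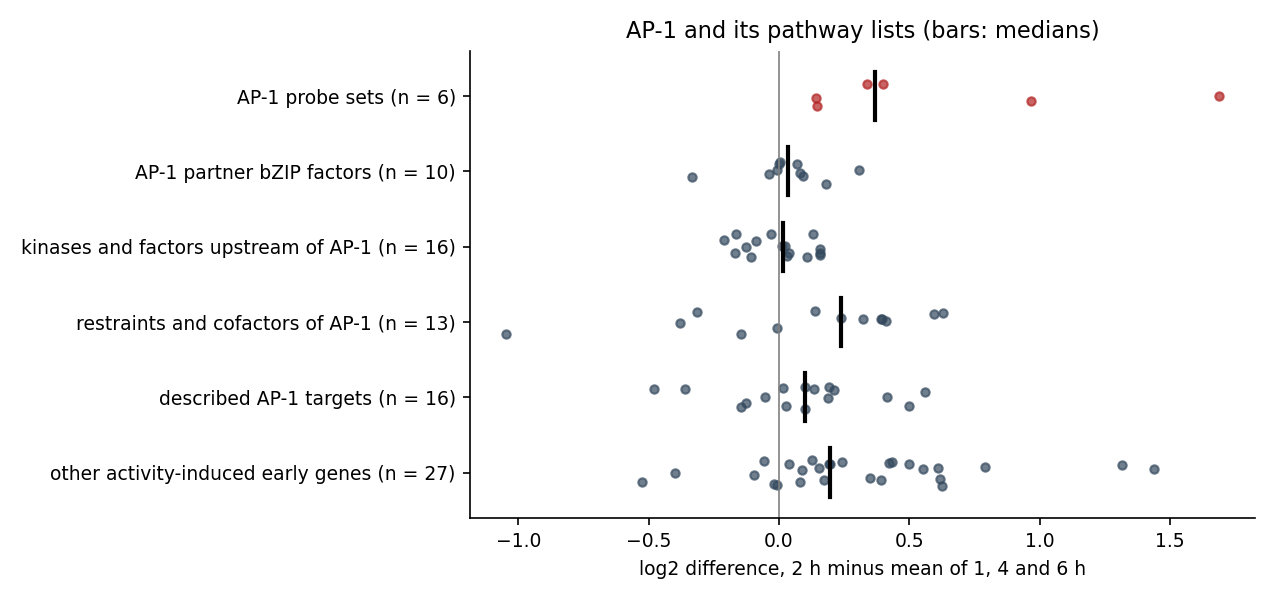
Log2 difference between 2 h and the mean of 1, 4 and 6 h for the measured AP-1 probe sets (red) and for the measured genes of 5 lists (blue), 1 point per probe set or gene, spread vertically for visibility, with black bars at the medians. The AP-1 median is 0.37, that of the other early genes 0.20, and those of partner factors and upstream kinases 0.036 and 0.016.

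Cell type markers are given beside the lower AP-1 values at 6 h. Of 11 measured endothelial and mural cell markers, 9 were lower at 6 h than at 1 h, as were 51.8% of all genes. Among the 9, Pecam1 was above the floor at 1 h alone, so its direction was fixed by the filter. The summed level of these markers on the array was 1930 at 6 h against 2081 to 2473, with Tek and Tie1 below the floor on all arrays. Of 5 measured dentate granule and CA3 markers, 4 were lower, with a summed level of 3644 at 6 h against 4268 to 4753. In that sum Calb1, which is not confined to these cells, gave 2412 at 1 h and 1708 at 6 h. CA1 pyramidal markers had 6 of 8 higher at 6 h than at 1 h, beside 47% of all genes, with summed levels from 28348 to 29559. Summed levels ranged from 55215 to 57255 for 11 astrocyte markers and from 10211 to 11007 for 12 microglia markers. Oligodendrocyte markers had 8 of 9 measured above their 1 h value at 6 h, and their summed level was 30011 at 6 h against 27186 to 28969. The part of these cell types, of the spike-in order and of the 3' to 5' ratio in the AP-1 values was not tested.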

How the data were processed

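Total RNA from CA1 hippocampus was read on 4 Affymetrix MG-U74Av2 arrays, 1 per time. The authors deposited linear intensity values for 12488 probe sets. Which software made them is not stated in the labels. Trimmed of 2% at either end, the deposited values averaged 499.9 on all 4 arrays, so they had been scaled before deposit.

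Each array was rescaled to a common trimmed mean of its 12422 non-control probe sets, by 0.999 to 1.001. The floor of 100.8 was the 40th percentile and was applied before log2. Names come from the annotation of the platform where it gave 1 symbol, which held for 10833. A list gene was read by its brightest probe set. Promoter sequences and motif shares come from RefSeq on GRCm38.p6, where all 6 genes matched.

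The members and lists were chosen with earlier results of these data known, so counts of members are descriptions. Atf3, Cebpb, Maff, Crem, Dusp1, Zfp36, Gfap, Gja1 and Camk2a stand in 2 lists. Named were all member probe sets, up to 4 genes of each pathway list with the largest range, a fixed set, and the 3 nearest courses to each member. The order of times shared by 5 probe sets was singled out after the values were seen.

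Alternatives were the values as deposited, a common median, quantile normalization, spike-in scaling, other floors and fold limits, plain or brightest probe sets alone, and each other array left out. No test of significance was run. The scripts were tested on simulated data with a known answer. They ran in Python 3.11.15 with pandas 2.3.3, NumPy 2.4.6 and matplotlib 3.10.9.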

Additional observations from a re-analysis of the deposited data

How the results depend on the processing

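No paired analysis was possible because each time has 1 array. An alternative value was taken as moved when it differed from the main one by more than 0.26 (log2), the robust SD of differences between the 4 h and 6 h arrays, or, for a count, by more than 1.5 times. No alternative reversed a difference of 1.5-fold or more, and 151 of 175 alternative values did not move. The limit of 0.26 is wider than the smaller differences, so such a value could change sign without moving. Of 106 values of single probe sets, 4 changed sign, all of them of Jun or Jund. Jund between 6 h and 1 h went from −0.049 to 0.147 with spike-in scaling and was not called moved. Leaving out other probe sets keeps a single value the same by construction. The values as deposited differ from the main ones only by factors of 0.999 to 1.001, and another floor leaves values above it unchanged. The count of 151 was thus in part fixed in advance. With spike-in scaling, 2 AP-1 probe sets were highest at 2 h in place of 6, with 7.24% of all measured probe sets. Lowest at 6 h were 2 in place of 5, with 8.08% of all. In the order 2 h, 1 h, 4 h, 6 h was 1 in place of 5, with 0.997% of all. At least 1.5-fold higher at 2 h than at 6 h was 1 in place of 2, with 215 of all 7422. The AP-1 median at 2 h was then 0.058 in place of 0.37. This scaling lowers every value at 2 h relative to the other times, by its construction. The count in that order of times was 2 with a common median, beside 3.33% of all, and 3 after quantile normalization, beside 5.15%. At least 1.5-fold higher at 2 h than at 1 h were 1 in place of 2 with the floor at the 60th percentile, with plain probe sets, with the brightest probe set of each gene and with a limit of 2-fold. At least 1.5-fold higher at 2 h than at 6 h were 1 with plain probe sets, 1 with a limit of 2-fold and 4 with the lowest limit tried. The fewer counts with plain or brightest probe sets come from the Junb probe sets left out. Without the 6 h array the AP-1 median at 2 h was 0.24, without the 4 h array 0.39 and without the 1 h array 0.48. Depth has no meaning for arrays, and the distance to the floor limits Fosl2, both Fos probe sets (the main one at 4 h and 6 h, with −0.21 in place of −1.21 between 6 h and 1 h at a floor at the 60th percentile) and the dimmer Junb probe set at 1 h. Leaving out arrays from the counts and the count of the shared order were chosen after seeing the data.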
